A study of Rattus norvegicus with 9 samples.

Results

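The 10 core circadian clock genes Arntl, Clock, Per1, Per2, Per3, Cry1, Cry2, Nr1d1, Nr1d2 and Dbp were read from RNA-seq of sorted rat retinal microglia, the resident macrophages of the retina. They were chosen by name, before any filter, but with earlier results of these data known. They are 10 of the 28343 genes in the count table and 10 of the 11748 genes with enough counts to be tested. All rats were of the inbred Dark Agouti strain. The diabetic group (4 libraries, numbered 1, 2, 4 and 5) had received streptozotocin at 55 mg/kg, which destroys pancreatic beta cells, when 8 to 10 weeks old, and 2 units of insulin were given when blood glucose passed 30 mmol/l. The control group (5 libraries, numbered 1, 3, 4, 5 and 6), also 8 to 10 weeks old, had received citrate buffer. Every animal was fasted for 12 hours and injected at 10 in the morning, and retinas were taken 4 weeks later. The hour at which they were taken is not in the labels, so the libraries cannot be placed on a time of day. Cells were sorted as CD11b-positive after papain digestion of whole retina, a gate that also holds blood-derived and border myeloid cells. The labels do not say whether a library came from 1 animal, so p-values measure the spread between these libraries.

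The clock is a loop of transcription that runs in most cells, the retina's among them. The proteins of Arntl (also called Bmal1) and Clock bind E-box elements and switch on the Per and Cry genes, whose proteins return to the nucleus and repress them. The same elements drive Nr1d1 and Nr1d2, which encode the REV-ERB receptors that repress Arntl through ROR elements, and Dbp, a transcription factor that acts on D-boxes in Per genes. The transcripts of Arntl and of Dbp, Per2, Per3 and Nr1d1 therefore peak at different hours of the day in many tissues. Per1 also responds quickly to glucocorticoids, cAMP and stress signals.

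Matches to elements by which the members are known to act on each other were found in RefSeq promoter sequences (build GRCr8, 250 bases before a gene's start) of 4 of these genes, and those sequences are shown for that reason. Of the 10 genes 9 were matched, with 11 promoters between them. Arntl was matched by its current symbol Bmal1, and Cry1 was not matched. Capitals mark motif matches on either strand.
Arntl, ROR element, chr1:176766078-176766327, plus strand: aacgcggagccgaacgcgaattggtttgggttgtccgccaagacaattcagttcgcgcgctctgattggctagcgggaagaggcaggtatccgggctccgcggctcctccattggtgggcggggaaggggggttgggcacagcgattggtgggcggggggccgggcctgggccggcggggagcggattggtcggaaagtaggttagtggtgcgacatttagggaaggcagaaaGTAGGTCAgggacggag
Per2, D-box and then E'-box, chr9:99496994-99497243, minus strand: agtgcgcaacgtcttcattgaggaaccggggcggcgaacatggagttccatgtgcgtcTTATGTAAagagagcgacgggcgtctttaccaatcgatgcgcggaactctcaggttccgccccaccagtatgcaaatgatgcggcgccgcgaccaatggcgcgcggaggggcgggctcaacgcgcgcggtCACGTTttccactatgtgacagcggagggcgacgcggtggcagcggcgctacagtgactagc
Cry2, E'-box, chr3:98860632-98860661, minus strand: acacatggtgggAACGTGagggggcggggc
Nr1d1, first start, E'-box, chr10:84231969-84231998, minus strand: cgcatagagctcAACGTGcccgctgctgga
Nr1d1, second start, E-box, chr10:84229628-84229657, minus strand: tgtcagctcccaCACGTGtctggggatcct
The search used CACGTG for the E-box, CACGTT for the E'-box, TTANGTAA for the D-box, NTAGGTCA or NTGGGTCA for the ROR element, TGACGTCA for the cAMP element and TGACGTNN for its shorter form, which the full cAMP element contains, together with the glucocorticoid element. In Arntl the ROR element began 17 bases before the start. In Per2 the E'-box began 62 bases and the D-box 192 bases before it. Among all 33469 promoters of the table, 5.59% held the E-box, 4.07% the E'-box, 2.04% the D-box and 5.59% the ROR element. The cAMP element (1.59% of all), its shorter form (6.87%) and the glucocorticoid element (0.373%) had no match in the members' promoters. No motif was matched in those of Clock, Per1, Per3, Nr1d2 and Dbp, which says only that these letters are not in this window.

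Libraries held 6228756 to 11332823 counts, the lowest in diabetic 4. At these depths the clock genes rested on 36 (Per1 in diabetic 4) to 1866 (Nr1d2 in control 5) counts per gene and library. Of 10 microglia markers 9 had counts in the table and Siglech was at 0 in every library, and their summed level was 27166 to 30749 CPM (counts scaled by library total and TMM factor) in control and 26030 to 27877 CPM in diabetic libraries. Immediate-early genes are switched on within minutes of a stimulus. The list of them held 26 genes, 25 of which were in the table, and included the heat shock genes Hspa1a, Hspa1b and Dnajb1. It set controls 4 and 6 apart, with 26487 and 35286 summed CPM. Controls 1, 3 and 5 held 4514 to 9870 CPM and diabetic libraries 13248 to 20936 CPM. Markers of blood and border myeloid cells summed to 1108 to 2254 CPM in controls and 1354 to 3000.4 CPM in diabetic libraries, with Ccr2 at 0 throughout, and 6 of 9 tested had an unadjusted quasi-likelihood p under 0.05, all higher. Summed markers ranged from 35.1 to 65.3 and 52.2 to 156 CPM for inner retinal neurons (5 of 9 higher and 1 lower at that p), 237 to 1266 and 365 to 1798 CPM for photoreceptors (0 of 10), 39.5 to 178 and 32.5 to 68.5 CPM for vascular cells (2 of 7, lower), and 12459 to 17434 and 12127 to 13971 CPM for Muller glia (3 of 8, lower). Apoe, which microglia also express, held most of the Muller glia sum with 10038 to 14906 CPM in controls and 10004 to 11953 CPM in diabetic libraries, while Rlbp1, a more specific marker, averaged 44.7 and 36.8 CPM and Aqp4 9.89 and 8.60 CPM. Over all genes tested 8.94% were higher and 10.0% lower at that p (18.9% together). The part of these cells, and of the immediate-early level, in the clock values was not tested. In such bulk samples fewer cells expressing a gene and less RNA per cell cannot be told apart.

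The first question was whether any clock gene differed between diabetic and control microglia. None of the 10 passed an adjusted p of 0.05 in edgeR's quasi-likelihood test, where 0.0681% of all genes tested did (0.0426% higher and 0.0255% lower in diabetic libraries). The DESeq2 Wald test called 0 of them beside 3.36% of all genes (1.58% higher and 1.79% lower), and limma-voom called 0 beside 0.0340%. At an unadjusted p under 0.05 there were 2 of 10, Clock with the lower level in diabetic libraries and Nr1d1 with the higher, against 18.9% of all genes tested (8.94% higher and 10.0% lower), so the share among clock genes is near the background. The 4 diabetic and 5 control values overlapped for all 10 genes, while they did not overlap for 8.44% of all genes (4.27% higher and 4.16% lower). The log2 fold change of diabetic minus control was above 0 for 5 clock genes (Per2, Per3, Cry2, Nr1d1 and Dbp) and below 0 for 5 (Arntl, Clock, Per1, Cry1 and Nr1d2), with a median of -0.030, while 50.3% of all genes tested were above 0 and their median was 0.0017. Leaving out controls 4 and 6, an alternative added after seeing the data, also gave 0 calls and 0 clock genes without overlap, where 15.3% of all genes had none.

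**Figure D1:**
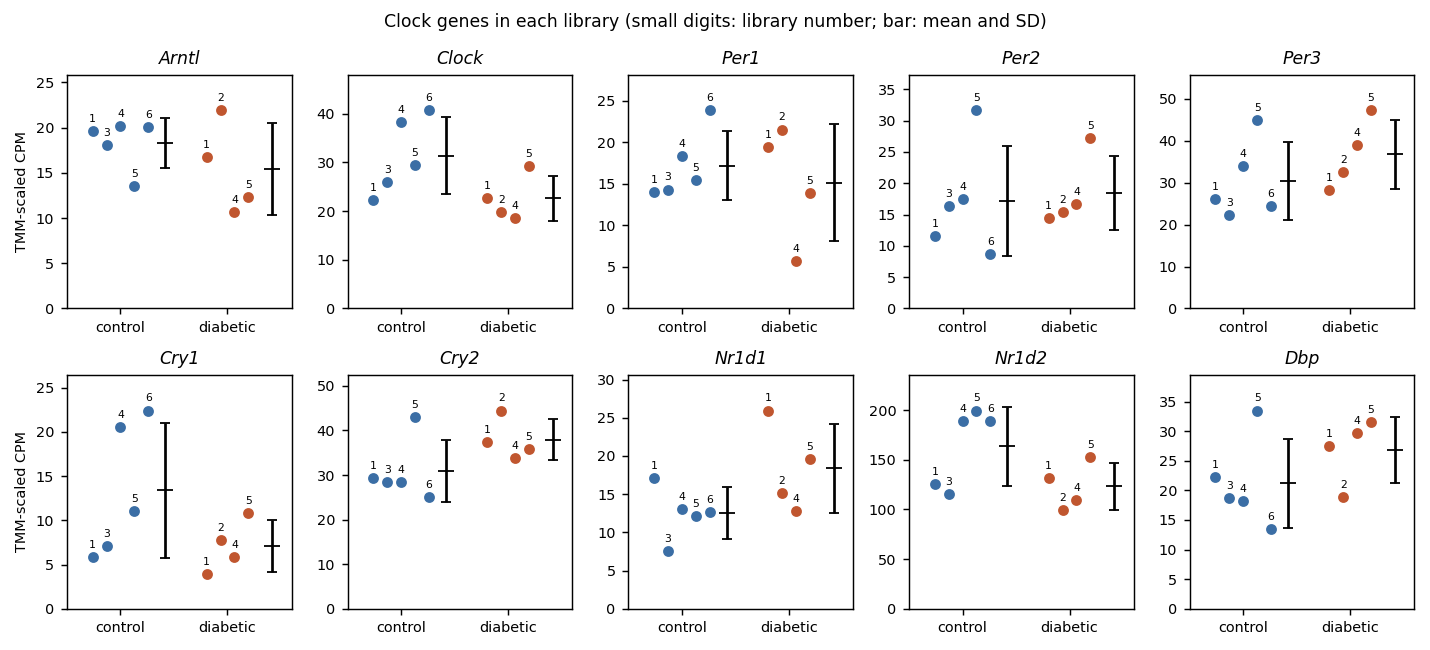
Level of each clock gene in TMM-scaled CPM (vertical axis, from 0) for the 5 control (blue) and 4 diabetic (orange) libraries, with library numbers and, at the side, mean and SD. The groups overlap in all 10 panels, and Cry1 in controls 4 and 6 (20.5 and 22.4 CPM) and Per1 in diabetic 4 (5.73 CPM) lie away from the rest of their groups.

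Of the activators, Arntl, which encodes the partner that the loop cannot run without, was at 19.6, 18.1, 20.2, 13.6 and 20.1 CPM in controls 1, 3, 4, 5 and 6, and at 16.8, 21.9, 10.7 and 12.3 CPM in diabetic 1, 2, 4 and 5. Control 5 and diabetic 4 and 5 had the low levels, and the other 6 libraries lay close together. Means were 18.3 ± 2.78 CPM (SD, n = 5) and 15.4 ± 5.05 CPM (SD, n = 4), and the log2 fold change was -0.24 (95% interval -0.70 to 0.22, adjusted p = 0.534 in edgeR's quasi-likelihood test). It was -0.46 without diabetic 2, -0.11 without diabetic 4, -0.15 without diabetic 5 or without controls 4 and 6, and -0.11 without normalization factors. Clock, the gene of Arntl's binding partner, was at 22.4, 25.9, 38.3, 29.5 and 40.7 CPM in controls and at 22.7, 19.9, 18.6 and 29.2 CPM in diabetic libraries. Controls 4 and 6 were highest, and the ranges overlapped between 22.4 and 29.2 CPM. Means were 31.4 ± 7.89 CPM (SD, n = 5) and 22.6 ± 4.71 CPM (SD, n = 4). The log2 fold change was -0.47 (95% interval -0.90 to -0.036, quasi-likelihood adjusted p = 0.234). Without controls 4 and 6 the value was -0.20, and with the mean level of the immediate-early list as a covariate it was -0.49 with a quasi-likelihood adjusted p of 0.0334.

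The period genes encode the scaffold of the repressor complex. Per1 was at 13.96, 14.3, 18.4, 15.4 and 23.8 CPM in controls and at 19.4, 21.5, 5.73 and 13.9 CPM in diabetic libraries. The low value in diabetic 4, the shallowest library, rests on 36 counts, and the highest diabetic level was 3.75 times the lowest. Its log2 fold change of -0.16 (95% interval -0.87 to 0.54, quasi-likelihood adjusted p = 0.802) turned to 0.094 without diabetic 4 and to 0.067 without controls 4 and 6. Per2 was at 11.6, 16.3, 17.5, 31.7 and 8.76 CPM in controls and at 14.4, 15.4, 16.7 and 27.3 CPM in diabetic libraries. Control 5 and diabetic 5 were the high libraries, and the other 3 diabetic values lay between 14.4 and 16.7 CPM. The means of 17.2 ± 8.84 CPM (SD, n = 5) and 18.5 ± 5.97 CPM (SD, n = 4) gave a log2 fold change of 0.10 (95% interval -0.68 to 0.88, quasi-likelihood adjusted p = 0.892), which was below 0 without control 1, control 6, diabetic 5 or controls 4 and 6 together (-0.013, -0.057, -0.15 and -0.11). Per3 was at 26.1, 22.3, 34.0, 45.0 and 24.5 CPM in controls and at 28.3, 32.4, 39.0 and 47.3 CPM in diabetic libraries, again with control 5 and diabetic 5 highest. Its log2 fold change was 0.28 (95% interval -0.20 to 0.75, quasi-likelihood adjusted p = 0.492). It was 0.46 without control 5, 0.18 without control 3 and 0.13 without diabetic 5.

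The cryptochrome genes encode the repressors proper, and their log2 fold changes had opposite signs. Cry1 was at 5.85, 7.11, 20.5, 11.02 and 22.4 CPM in controls and at 3.95, 7.75, 5.89 and 10.8 CPM in diabetic libraries. Controls 4 and 6 stood above all other libraries, and the remaining 3 controls lay within the range of the diabetic group or at its edge. The means were 13.4 ± 7.66 CPM (SD, n = 5) and 7.10 ± 2.92 CPM (SD, n = 4), and the log2 fold change of -0.90 (SE 0.45, 95% interval -1.91 to 0.11) was the furthest from 0 among the members, with a quasi-likelihood adjusted p of 0.306. It was -0.17 without controls 4 and 6, the libraries with the highest immediate-early level, and -0.88 with that level as a covariate, where its quasi-likelihood adjusted p was 0.0326. In that fit 10.8% of all genes passed (6.66% lower and 4.12% higher in diabetic libraries), and 2 of the 10 clock genes did, Clock and Cry1, both with the lower level in diabetic libraries. Cry2 was at 29.2, 28.5, 28.5, 42.9 and 25.0 CPM in controls and at 37.5, 44.5, 33.8 and 35.9 CPM in diabetic libraries. All 4 diabetic libraries lay above 4 of the 5 controls, and control 5 lay among the diabetic values. Its log2 fold change was 0.30 (95% interval -0.045 to 0.64, quasi-likelihood adjusted p = 0.315), and 0.17 without controls 4 and 6. Without control 5 the groups did not overlap, as was so for 10.7% of all genes in the same libraries. No clock gene did so without any other single library, where 13.9%, 10.6%, 10.1% and 10.0% of all genes did without controls 1, 3, 4 and 6 and 11.3%, 11.2%, 10.3% and 14.5% without diabetic 1, 2, 4 and 5.

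The nuclear receptor genes also had opposite signs. Nr1d1, on chromosome 10 (Rnor6, 86683875 to 86690815, minus strand, ENSRNOG00000009329), was at 17.2, 7.54, 13.004, 12.1 and 12.6 CPM in controls and at 26.0, 15.2, 12.7 and 19.6 CPM in diabetic libraries. Diabetic 1 and 5 lay above all controls, and diabetic 2 and 4 lay within their range. The means were 12.5 ± 3.42 CPM (SD, n = 5) and 18.4 ± 5.79 CPM (SD, n = 4), and diabetic levels were 1.48 times control levels (log2 fold change 0.56, 95% interval 0.026 to 1.10, quasi-likelihood adjusted p = 0.246). Its value without controls 4 and 6 was 0.58, and over the alternatives tried it ran from 0.35 without diabetic 1 to 0.71 without control 1, with adjusted p-values from 0.131 to 0.533. Nr1d2 (chromosome 15, 8730871 to 8757165, plus strand, ENSRNOG00000046912) had the most counts of the members, with 125, 115, 189, 199.7 and 189 CPM in controls and 132, 99.0, 109 and 153 CPM in diabetic libraries. Controls 4, 5 and 6 lay above every diabetic library, and controls 1 and 3 lay inside the diabetic range. Its log2 fold change was -0.41 (95% interval -0.83 to 0.013, quasi-likelihood adjusted p = 0.275), and -0.26 without controls 4 and 6. Dbp (chromosome 1, 101687855 to 101692846, plus strand, ENSRNOG00000021027), an output gene whose level follows the loop closely in many tissues, was at 22.3, 18.7, 18.2, 33.5 and 13.5 CPM in controls and at 27.5, 18.9, 29.6 and 31.5 CPM in diabetic libraries. Control 5 was the highest of all, control 6 the lowest, and 3 of 4 diabetic libraries lay above 4 of 5 controls. Its log2 fold change was 0.34 (95% interval -0.19 to 0.86, quasi-likelihood adjusted p = 0.446). It was 0.56 without control 5, 0.21 without control 6 and 0.11 without controls 4 and 6.

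**Figure D2:**
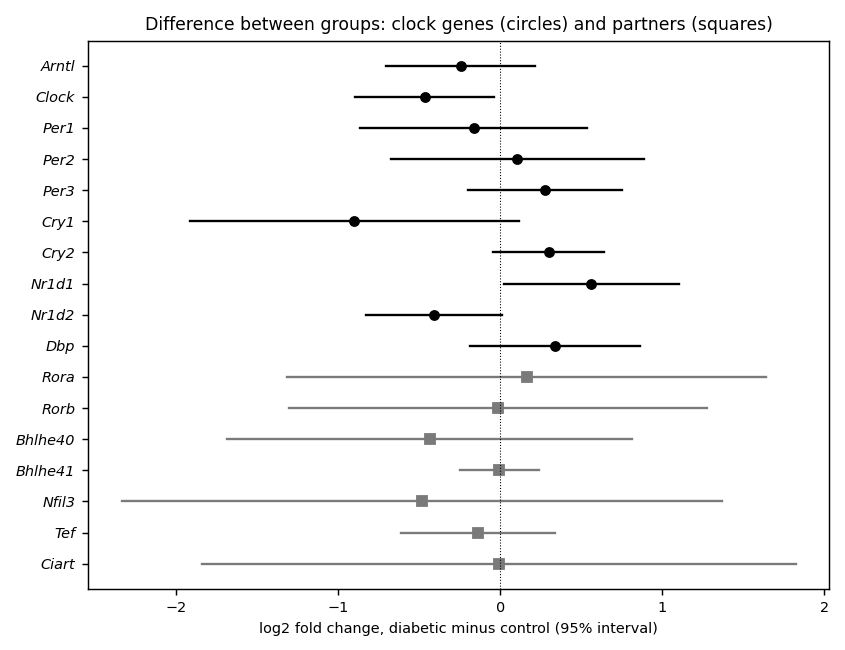
Log2 fold change of diabetic minus control with its 95% interval for the 10 clock genes (black circles) and 7 tested partners (grey squares). Only the intervals of Clock (-0.90 to -0.036) and Nr1d1 (0.026 to 1.10) leave out 0, before any adjustment for the number of genes, and those of Nfil3 and Ciart are the widest.

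These intervals bound what the libraries could show. For Cry2, the member with the narrowest interval, they allow diabetic levels from 0.970 to 1.56 times those of controls. For Cry1, the widest, they allow 0.265 to 1.08 times. Counts alone cannot rank the clock genes by level, since they are not per length. In the StringTie assemblies, whose TPM values are per length, only Nr1d1, Nr1d2 and Dbp carried a reference identifier, in 3, 5 and 5 libraries. In diabetic 5, where all 3 were listed, Nr1d2 was at 17.5 TPM, Dbp at 8.17 TPM and Nr1d1 at 2.51 TPM. Nr1d2 was also above Dbp in control 5 (21.0 and 8.48 TPM) but below it in control 3 (4.42 and 5.46 TPM). Over the libraries that list them Nr1d2 ran from 4.42 to 22.2 TPM, Dbp from 3.46 to 8.48 TPM and Nr1d1 from 2.51 to 3.55 TPM, and reads assigned to unnamed assemblies are not in these values.

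Ratios within a library do not depend on its scaling factor, and all were taken to Arntl. They are given library by library for Nr1d1, Dbp and Per3, 3 of the 5 members with log2 fold changes above 0. The log2 ratio of Nr1d1 to Arntl counts was -0.19, -1.26, -0.64, -0.17 and -0.67 in controls 1, 3, 4, 5 and 6, and 0.63, -0.53, 0.26 and 0.67 in diabetic 1, 2, 4 and 5. It was higher in diabetic 1, 4 and 5 than in every control, and diabetic 2 lay among the controls. The zero point of such a ratio depends on transcript lengths and has no meaning of its own. The mean was -0.59 ± 0.45 (SD, n = 5) and 0.26 ± 0.56 (SD, n = 4). For Dbp to Arntl the log2 ratio was 0.18, 0.048, -0.15, 1.301 and -0.57 in controls and 0.71, -0.22, 1.47 and 1.36 in diabetic libraries. For Per3 to Arntl it was 0.41, 0.30, 0.75, 1.73 and 0.28 in controls and 0.76, 0.56, 1.87 and 1.94 in diabetic libraries. Control 5 and diabetic 4 and 5 had the highest ratios of Dbp and of Per3 to Arntl, so these high ratios occurred in both groups. The difference of diabetic minus control means was 0.84, 0.67 and 0.59 on the log2 scale for the 3 ratios, as a description without a test. Over all 9 ratios to Arntl it was above 0 for 5 and below 0 for 4. It was 0.61 for Cry2 and 0.49 for Per2, but -0.51 for Cry1, -0.17 for Clock, -0.10 for Nr1d2 and -0.025 for Per1. For the ratios of Nr1d1, Dbp and Per3 the difference stayed above 0 when any 1 library was left out (0.67 to 1.11, 0.46 to 1.02 and 0.37 to 0.85). These 3 ratios share Arntl and so are not independent of each other. Nr1d1, Dbp and Per3 had log2 fold changes above 0 and Arntl below 0 under all 20 alternatives. The sign of these differences therefore adds nothing to those fold changes. Such ranges were not computed for the other ratios.

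**Figure D3:**
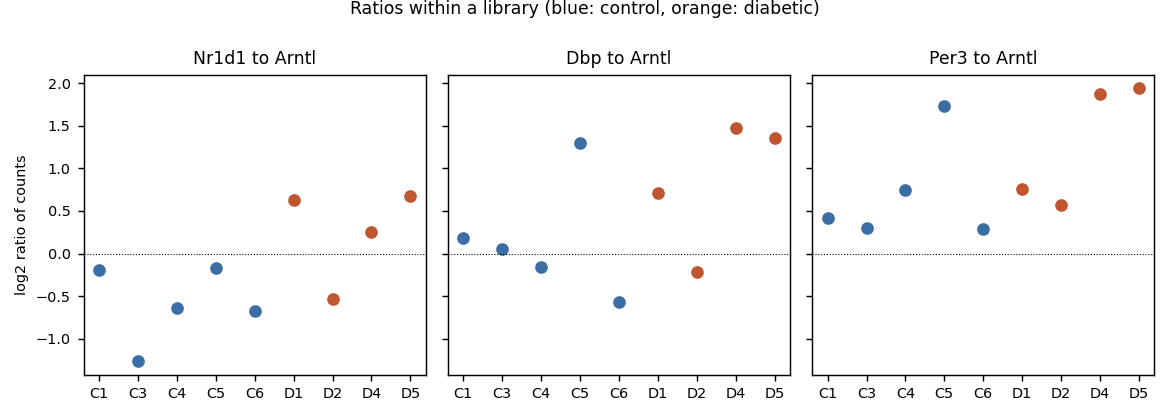
Log2 ratio of the counts of Nr1d1, Dbp and Per3 to those of Arntl in each library (C control in blue, D diabetic in orange, with library numbers). Control 5 lies with diabetic 4 and 5 in the Dbp and Per3 panels, at 1.301 to 1.47 and 1.73 to 1.94.

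How the clock genes varied together from library to library was described by correlating log2 CPM over the 9 libraries for all 45 pairs, with exact permutation tests over all 362880 orders. No pair passed after Benjamini-Hochberg adjustment over the 45 pairs, by Pearson's r or by Spearman's rho. For r, 9 pairs had an unadjusted exact permutation p under 0.05. The share among pairs of all genes tested was not computed, so whether this count is particular to clock genes cannot be told. Clock went with Cry1 (r = 0.89, rho = 0.80, exact permutation p = 0.00189 and 0.0138, adjusted 0.0538 and 0.194) and with Nr1d2 (r = 0.88, rho = 0.88, exact permutation p = 0.00239 and 0.00308, adjusted 0.0538 and 0.138). Without controls 4 and 6, the libraries farthest from the median of Clock, r was 0.64 with Cry1 and 0.82 with Nr1d2. These orders cross the groups, so a difference between groups adds to r. With each group's mean removed, r was 0.85 and 0.82. The exact permutation test within groups then gave p = 0.0170 and 0.0274 (adjusted 0.255 and 0.309). Per2 went with Per3 (r = 0.82, rho = 0.80, exact permutation p = 0.00615 and 0.0138, adjusted 0.0739 and 0.194), and r was 0.75 without controls 5 and 6. With group means removed r was 0.83 (p = 0.0153 by the exact permutation test within groups, adjusted 0.255).

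Arntl and Dbp varied in opposite directions (r = -0.81, rho = -0.78, exact permutation p = 0.00821 and 0.0172, adjusted 0.0739 and 0.194). That r was -0.81 without diabetic 4 and 5, the libraries farthest from the median of Arntl, and -0.77 after each group's mean was removed, where all 2880 orders within groups gave p = 0.00833 by the exact permutation test (adjusted 0.255). It was -0.52 without normalization factors (adjusted p = 0.479 by the exact permutation test). Arntl and Per1 went together (r = 0.78, rho = 0.73, exact permutation p = 0.00765 and 0.0311, adjusted 0.0739 and 0.233), and r was 0.43 without diabetic 4 and 5, so this relation rests in part on them. With group means removed r was 0.76 (p = 0.0528 by the exact permutation test within groups, adjusted 0.392). Dbp had an r of 0.76 with Per2 and 0.74 with Per3, with exact permutation p-values of 0.0175 and 0.0265 and adjusted values of 0.131 and 0.149, and the first was 0.41 without controls 5 and 6. Nr1d1, which encodes a repressor of Arntl, had an r of -0.076 with Arntl and 0.37 with Dbp (exact permutation p = 0.841 and 0.329, adjusted 0.983 and 0.680). With group means removed, 0 of 45 pairs passed by the exact permutation test within groups. With 5 and 4 libraries no correlation could be computed within a group of at least 6.

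**Figure D4:**
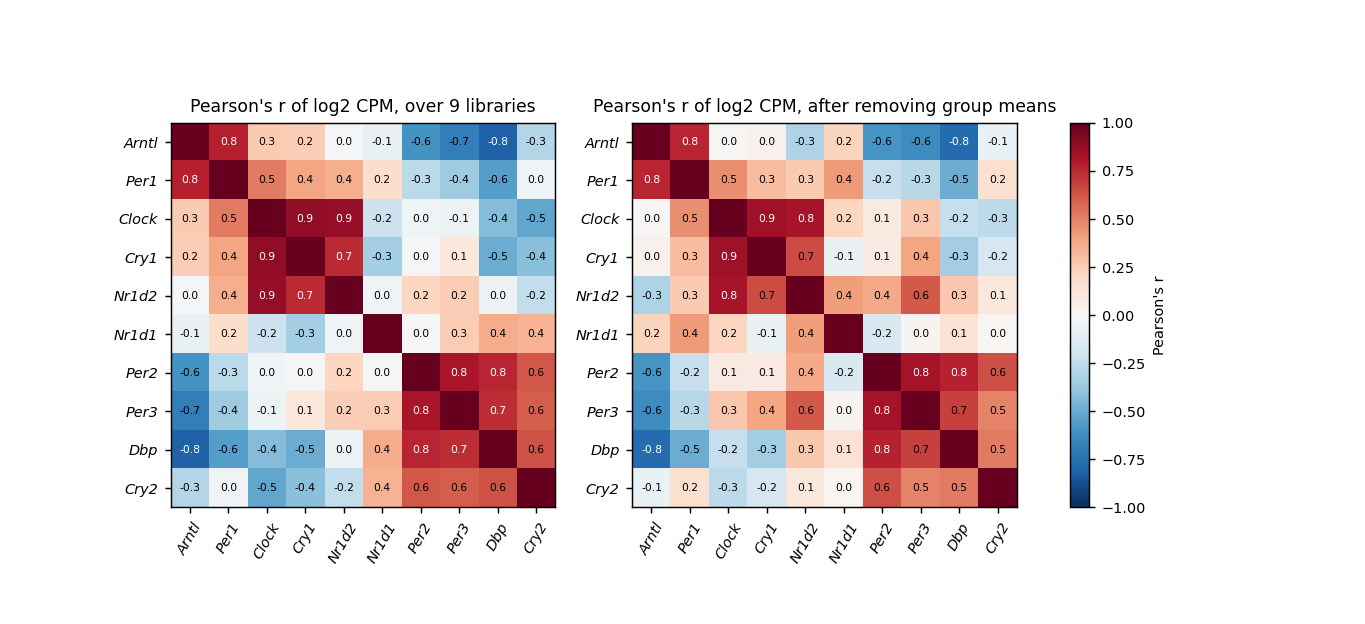
Pearson's r of log2 CPM for each pair of clock genes over 9 libraries (left) and after each group's mean was removed (right), coloured from -1 (blue) to 1 (red). Clock, Cry1 and Nr1d2 are positive with each other, and so are Per2, Per3, Dbp and Cry2. The axis order was set by hand and places them side by side, and no pair passed adjustment. Over 9 libraries r between these sets ran from -0.52 (Clock with Cry2) to 0.25 (Per3 with Nr1d2). Without controls 4 and 6 (not drawn) it ran from 0.031 (Clock with Cry2) to 0.82 (Per2 with Cry1), so the sets were not separate there. Arntl is negative with Dbp (-0.81 and -0.77) and Per3 (-0.69 and -0.63).

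The wider clock network was read from 4 lists of genes known for their part in the loop, 39 of which were tested. None passed the adjusted threshold in edgeR's quasi-likelihood test. Among them 7 (17.9%) had an unadjusted p under 0.05, beside 18.9% of all genes in either direction, so the share is near the background. All 7 had the lower level in diabetic libraries and 0 the higher, while 10.0% of all genes were lower and 8.94% higher. By list, with an unadjusted p under 0.05 there were 0 of 9 tested clock partners, 3 of 12 kinases and ubiquitin ligases, 2 of 8 output genes and 2 of 10 corepressors and coactivators, and the median log2 fold changes were -0.016, -0.082, -0.31 and -0.18. Groups did not overlap for 5 of the 39 (12.8%, beside 8.44% of all genes). These were Csnk1d, Fbxw11, Btrc and Wdr5, all lower, and Tipin, higher (1.08 ± 0.283 and 1.76 ± 0.183 CPM, SD, n = 5 and 4), of which Btrc and Tipin were named after their values were seen.

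Some of these genes act on the clock proteins themselves. Csnk1d, the casein kinase that phosphorylates PER proteins, had a mean of 353 ± 12.0 CPM (SD, n = 5) among controls and 305 ± 9.99 CPM (SD, n = 4) among diabetic libraries (log2 fold change -0.21, 95% interval -0.37 to -0.047, quasi-likelihood adjusted p = 0.173). Fbxw11 and Btrc encode the F-box proteins that bind phosphorylated PER, and had log2 fold changes of -0.47 and -0.23 (quasi-likelihood adjusted p = 0.132 and 0.264). Fbxw11 was at 83.1 to 86.1 CPM in diabetic libraries and at 87.9 to 140 CPM in controls, with controls 1 and 3 close to the diabetic values. Sirt1, a deacetylase that acts on clock proteins, was at 13.96, 16.0, 30.4, 15.9 and 40.5 CPM in controls and 9.18 to 18.3 CPM in diabetic libraries, with controls 4 and 6 highest as for Cry1 (log2 fold change -0.83, quasi-likelihood adjusted p = 0.244). Wee1, a cell cycle kinase with E-boxes in its promoter, showed the same high controls, with 40.5 and 39.2 CPM in controls 4 and 6, 11.6 to 17.9 CPM in the other controls and 10.4 to 17.7 CPM in diabetic libraries (log2 fold change -0.99, quasi-likelihood adjusted p = 0.224). Nampt, the clock-driven enzyme of NAD synthesis, had a log2 fold change of -0.39 (quasi-likelihood adjusted p = 0.229). Of the coregulators, Wdr5 and Nono had log2 fold changes of -0.36 and -0.21 (quasi-likelihood adjusted p = 0.157 and 0.239).

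The partners that share binding sites with the core genes spread widely between libraries. Nfil3, a repressor that competes with DBP at D-boxes, was at 17.7, 12.7, 93.3, 15.7 and 98.6 CPM in controls and at 26.0, 32.3, 16.1 and 60.4 CPM in diabetic libraries. Ciart, a repressor of the activator pair, was at 7.17, 8.06, 66.3, 20.9 and 33.4 CPM in controls and 20.2, 13.7, 14.3 and 58.6 CPM in diabetic libraries. Bhlhe40, which encodes an E-box repressor, was at 115 and 147 CPM in controls 4 and 6, at 32.1 to 43.3 CPM in the other controls and at 38.5 to 78.9 CPM in diabetic libraries. For these 3 genes controls 4 and 6 and diabetic 5 held the 3 highest levels, and the same libraries had the 3 highest immediate-early sums. The log2 fold changes were -0.48, -0.0096 and -0.44 and turned to 1.13, 1.16 and 0.57 without controls 4 and 6 (quasi-likelihood adjusted p = 0.766, 0.997 and 0.677 with all libraries). Bhlhe41, the close relative of Bhlhe40, did not share that pattern, with 91.9 to 106 CPM in controls and 83.4 to 116 CPM in diabetic libraries (log2 fold change -0.0046, 95% interval -0.25 to 0.24, quasi-likelihood adjusted p = 0.988, 0.11 without normalization factors). Tef, a relative of Dbp, was highest in control 5 (109 CPM) and diabetic 5 (79.3 CPM), as were Per2 and Per3, and its log2 fold change was -0.14 (95% interval -0.61 to 0.34). Rora and Rorb, the activators at ROR elements, were near the detection limit, at 0.607 to 1.80 and 0.434 to 2.19 CPM in controls and at 0 to 2.45 and 0.159 to 2.07 CPM in diabetic libraries. Arntl2, a relative of Arntl, had 0 counts in every library. Npas2, a stand-in for Clock, had 1 count in control 5 and 4 counts in diabetic 1, and Hlf, the third relative of Dbp, had 0 to 3 counts per library.

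**Figure D5:**
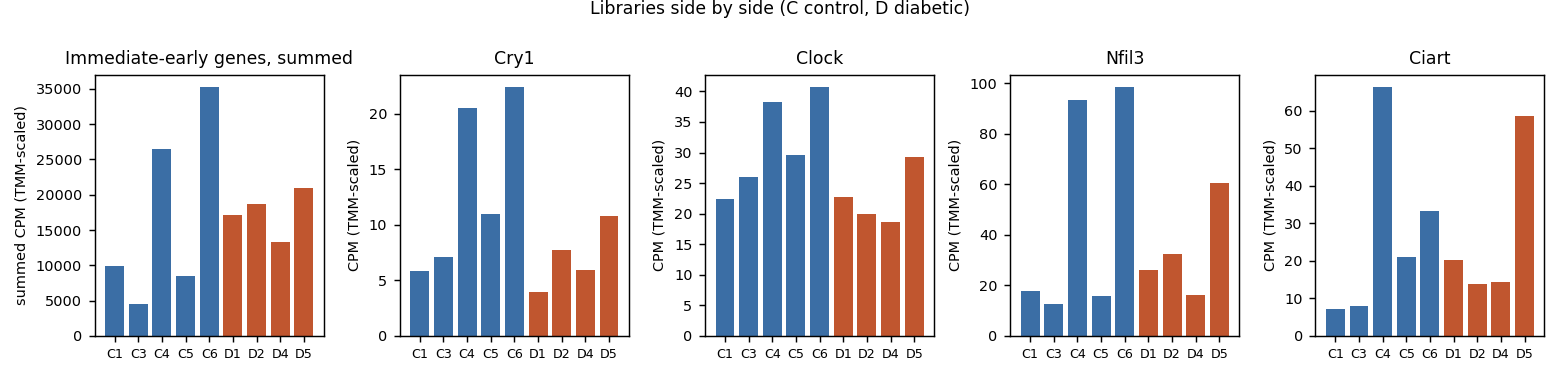
Summed level of the immediate-early list and levels of Cry1, Clock, Nfil3 and Ciart in TMM-scaled CPM (bars from 0) for each library (C control in blue, D diabetic in orange). Controls 4 and 6 are highest for the immediate-early list, Cry1, Clock and Nfil3, and for Ciart control 4 (66.3 CPM) and diabetic 5 (58.6 CPM) lead.

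Signals known to induce Per1 and Per2 were read from 3 lists. None of the 23 immediate-early, 12 glucocorticoid-responsive and 7 cAMP response genes tested passed the adjusted threshold, and their median log2 fold changes were -0.13, 0.035 and -0.26. At an unadjusted p under 0.05 there were 0, 1 and 1 genes, both lower, beside 18.9% of all genes tested (10.0% lower), so these lists held no excess over all genes. The 2 genes were Mertk, an engulfment receptor gene (log2 fold change -0.41, 95% interval -0.65 to -0.17, quasi-likelihood adjusted p = 0.110, with no overlap of the groups), and Atf1, a factor at cAMP elements (-0.26, quasi-likelihood adjusted p = 0.257). Fos was at 67.6 to 1102 CPM in controls and 425 to 1207 CPM in diabetic libraries (log2 fold change 0.46, quasi-likelihood adjusted p = 0.766). Fkbp5, a gene that glucocorticoids induce, was at 42.6, 36.8, 36.0, 42.1 and 37.0 CPM in controls and at 31.9, 33.2, 15.4 and 81.7 CPM in diabetic libraries. Diabetic 4 had the lowest level of Fkbp5, as it had of Per1, while Fkbp5 was highest in diabetic 5, where Per1 was not. Its log2 fold change was 0.067 (95% interval -0.83 to 0.97, quasi-likelihood adjusted p = 0.940). Tsc22d3, another such gene, was at 409 to 831 CPM in controls and 522 to 960 CPM in diabetic libraries (log2 fold change 0.39, quasi-likelihood adjusted p = 0.410).

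The genes most like 3 of the members were found by Pearson's r of log2 CPM over the 9 libraries after each group's mean was removed, among 11747 genes, which share libraries and depth. They were Msl3 (0.96), LOC102555727 (0.96) and AABR07034362.1 (0.95) for Arntl, Gnl3l (0.97), Reln (0.93) and Lyrm7 (0.93) for Nr1d1, and Zfp120 (0.98), Kdm4b (0.95) and Prcc (0.94) for Dbp. No clock gene was among them. These r values were picked as the highest of 11747 over 9 libraries, and whether they exceed what such picking alone gives was not tested. The clock gene most like Arntl was Per1, in place 154 (0.76), the most like Dbp was Per2, in place 217 (0.77), and the most like Nr1d1 was Per1, in place 1219 (0.43).

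In the authors' deposited table none of the 10 clock genes was below an adjusted p of 0.05, where 2.10% of its genes were. At an unadjusted p under 0.05 the authors' deposited table held Nr1d1 (log2 fold change 0.68, adjusted p = 0.181) and Cry1 (log2 fold change -0.74, adjusted p = 0.323), beside 15.2% of its genes. For Clock the authors' deposited table gave -0.33 with an unadjusted p of 0.113. A quasi-likelihood fit without normalization factors, which moved the median of all genes from 0.0017 to 0.117, gave 0.68 for Nr1d1, -0.74 for Cry1 and -0.33 for Clock.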

How the data were processed

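RNA from CD11b-positive cells sorted from rat retina was preamplified with a SmartSeq kit and sequenced from Nextera XT libraries, per the labels' protocols. The main table holds raw counts per gene symbol, as the authors deposited it. Per the submitters' processing notes, bcl2fastq 2.18.0.12, TopHat2 2.0.14, StringTie 1.2.4 and edgeR were used with build Rnor6, and how reads were counted, strand included, is not given in the sources used here. Without strand, reads of a gene and an antisense partner cannot be told apart. The authors also deposited a comparison table with log2 fold changes. Its p-values, raw and adjusted, are the authors' own. TPM values and coordinates came from StringTie assemblies on Rnor6, per the file headers.

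Genes were filtered with filterByExpr (minimum count 10, minimum total 15), scaled with TMM and compared by the quasi-likelihood F test of edgeR 4.0.16 (R 4.3.3) over 11748 genes, with Benjamini-Hochberg adjustment and a threshold of 0.05. The SE is the log2 fold change divided by the square root of F, and the 95% interval uses the t quantile. CPM divides by all counts times the TMM factor. Correlations use log2 CPM with a prior count of 2. Alternatives used DESeq2 1.42.0, limma 3.58.1 and other scalings, filters and subsets. The code was tested on simulated data. The members and gene lists were chosen with earlier results of these data known. Named genes are the members, 12 fixed partners and targets, list genes with an unadjusted p under 0.05 (up to 6 per list) and the 3 genes most like Arntl, Nr1d1 and Dbp. Counts per kilobase were not computed, since no gene lengths of Rnor6 were used here.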

Additional observations from a re-analysis of the deposited data

Results flagged for a closer look

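Among the 20 sets of values formed by 10 clock genes in 2 groups, 1 held a library far from the rest of its group. Cry2 in control 5 was at 42.9 CPM, while the other controls were at 25.0 to 29.2 CPM, and the gap to the nearest of them was 0.763 of the group's range. Chance flags about 1 in 20 such sets. Control 5 also had the highest control levels of Per2, Per3 and Dbp. Without it the log2 fold change of Cry2 was 0.45.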

How the results depend on the processing

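The count of 0 clock genes past the threshold held under the alternatives tried except 1, the immediate-early level as a covariate. That fit gave 2 (Clock and Cry1), beside 10.8% of all genes. At an unadjusted quasi-likelihood p under 0.05 there were 2, beside 18.9% of all genes. The DESeq2 Wald test, edgeR's likelihood-ratio test and limma-voom each called 0, where 3.36%, 1.46% and 0.0340% of all genes passed. Wider network genes past the threshold (39 tested in the main fit) numbered 0, but 1 by the DESeq2 Wald test (Csnk1d) and 4 with the covariate. Of all genes 0.0681%, 3.36% and 10.8% passed in these fits, so the 4 are near the background. Inducers of Per genes (40 tested with the covariate) numbered 0, 1 (Mertk) and 8. Of those 8, 6 are immediate-early genes that form the covariate, so their calls say nothing of diabetes, and the other 2 are Mertk and Errfi1. Over all genes the quasi-likelihood test called 8, against 31 with upper-quartile factors, 29 without factors, 599 by DESeq2, 171 by the likelihood-ratio test, 4 by limma-voom, 42 without a filter, 5 with a filter of CPM above 1 in 3 libraries, 1266 with the covariate, 0 to 75 when 1 library was left out and 0 without controls 4 and 6. Leaving out 1 library gave 0 to 1 clock genes without overlap (1 without control 5) and 0 to 2 correlated pairs past the threshold (1 without control 3, Per2 with Per3, and 2 without diabetic 2, Clock with Cry1 and Cry2 with Dbp).

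Of 580 log2 fold changes of 29 named genes under alternatives, 526 kept their sign and side of the threshold, 45 changed sign and 9 passed the threshold. With 1 library left out, values ranged from -0.38 to 0.094 for Per1, -0.15 to 0.44 for Per2, -0.11 to 0.059 for Bhlhe41, -0.25 to 0.071 for Tef, -0.75 to 0.64 for Ciart, -0.35 to 0.52 for Rora, -0.31 to 0.30 for Rorb and -0.53 to 0.33 for Fkbp5. Without controls 4 and 6 values were 0.067 for Per1, -0.11 for Per2, 0.57 for Bhlhe40, 1.13 for Nfil3, 1.16 for Ciart and 0.36 for Rorb. Upper-quartile factors gave 0.070 for Bhlhe41, 0.078 for Ciart and 0.068 for Rorb, and no factors 0.11, 0.15 and 0.13. By limma-voom values were 0.048 for Nfil3, 0.31 for Ciart, -0.39 for Rora and -0.12 for Fkbp5, and with the covariate 0.056 for Ciart and -0.0014 for Fkbp5. The cause of these sign changes was not tested.

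Libraries numbered 1, 4 and 5 occur in both groups, and their deviations from group means correlated at 0.20, -0.11 and 0.016. Whether libraries of the same number share more than that number cannot be told from these values. With the number as a replicate block 0 clock genes and 0 of 11713 genes passed, and the values were 0.14 for Bhlhe40, 0.081 for Nfil3, 0.36 for Ciart, -0.68 for Rora and -0.20 for Fkbp5. In simulated counts the quasi-likelihood test recovered 97.8% of genes changed by 2 and 69.2% of those changed by 1 on the log2 scale. The simulation gave each gene the spread typical of its level and drew libraries independently. Its rates may therefore be too high for genes that vary more between libraries. The fitted values of all 10 clock genes lay below 1 in size, where recovery was not simulated. Counts per kilobase were not run.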
